A study of Mus musculus with 32 samples.

Results

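The genes described here are the cholesterol homeostasis genes of 4T1 cells, a mouse line of triple-negative mammary carcinoma. They were taken from the Hallmark cholesterol homeostasis set in the gene set collection deposited with the data. Of its 75 genes, 4 (Avpr1a, Adh4, Gnai1 and Anxa13) were not in the count table, and 11 were taken out because they also belong to the Hallmark hypoxia or TNF/NF-κB sets or were set aside by name (among them Aldoc, Atf3, Atf5, Errfi1, Jag1, Nfil3, Pdk3, Plaur, Pnrc1 and Trib3). The remaining 60 members were measured beside 17757 genes in all. No measured value was used to choose them, but earlier results of these data were known when they were chosen.

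The spheroids grew for 5 days in lung-like medium and were profiled on a gradient that separates mRNA by ribosome load, into a polysomal fraction of more than 3 ribosomes and a sub-polysomal fraction below that. ASP shSCR carried a scramble shRNA and received 700 µM aspartate, and NoASP shSCR carried the same shRNA without added aspartate. ASP shGRIN2D and ASP shDHPS received aspartate and carried a lentiviral shRNA against Grin2d, an NMDA receptor subunit, or Dhps, the enzyme that starts the hypusination of the translation factor eIF5A. The scramble shRNA came in a lentiviral plasmid of the same type, and the transduced cells were selected with puromycin as pools. With 4 pellets in each of the 4 conditions, and both fractions of every pellet sequenced, the data hold 32 libraries with total counts of 12870563 to 25639437. The medium held horse serum, a source of lipid, in all conditions. The study's methods call the pellets of a condition independent, and p-values measure the spread between these pellets.

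Cells make cholesterol from acetyl-CoA. The mevalonate arm runs from HMG-CoA to farnesyl pyrophosphate, and the sterol arm runs from squalene through lanosterol to cholesterol. The transcription factor SREBP2 raises these enzymes when sterol is low. SCAP carries SREBP2 to the Golgi, where the S1P and S2P proteases release it, and INSIG proteins hold SCAP back in the endoplasmic reticulum when sterol is high. Most enzymes of the sterol arm reside in that membrane.

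The cells had the markers of their label. All 6 epithelial markers were present, with Krt8 at a mean of 1388 CPM (counts scaled to a common library total, normalised within each fraction) and Epcam at 530 CPM over the 32 libraries. Of 4 leukocyte, 3 endothelial and 4 fibroblast genes looked up, 2, 1 and 1 were in the table. The leukocyte gene Ptprc did not exceed 0.89 CPM and the endothelial gene Pecam1 did not exceed 0.623 CPM. Cd68 lay at 4.42 to 27.8 CPM and the fibroblast-associated Pdgfra at 6.16 to 36.7 CPM over the 32 libraries. In the polysomal fraction the summed leukocyte genes, nearly all Cd68, were at 11.2, 13.7, 11.2 and 13.1 CPM in ASP shSCR and at 20.9, 20, 28 and 24.6 CPM in ASP shDHPS, without overlap. In the sub-polysomal fraction they overlapped, at 5.96, 11.5, 6.8 and 7.38 CPM in ASP shSCR and 6.77, 8.64, 9.38 and 11.9 CPM in ASP shDHPS. Their part in the results below was not tested.

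Both targeted genes were checked in every library. Dhps was at 9.54, 10.4, 9.63 and 8.44 CPM in the sub-polysomal and 9.87, 13.6, 11.8 and 8.84 CPM in the polysomal libraries of ASP shDHPS. In ASP shSCR it was at 40.2, 32.2, 41.0 and 39.6 CPM and at 23.4, 45.5, 36.2 and 32.5 CPM, and no library of the other 3 conditions overlapped ASP shDHPS. Grin2d was at 2.45, 1.76, 2.51 and 2.73 CPM (sub-polysomal) and 2.06, 1.14, 1.11 and 2.45 CPM (polysomal) in ASP shGRIN2D. In ASP shSCR it was at 4.01, 3.63, 6.54 and 3.18 CPM and at 4.26, 2.80, 4.20 and 3.57 CPM. The 2 conditions did not overlap, although the lowest ASP shDHPS library, at 2.35 CPM, fell among those of ASP shGRIN2D.

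A polysomal library of ASP shSCR, that of replicate 1, stood apart from the rest. Libraries were scored so that the sub-polysomal mean is 0 and the polysomal mean is 1, using 11046 genes whose count never fell below 10. That library scored 0.372. Every other polysomal library scored 0.777 to 1.27, and sub-polysomal scores ran from -0.114 to 0.162. Ratio and polysomal differences of the genes named are also given without it where it moved them by over 1.5 times or changed a call.

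Most of the cholesterol homeostasis genes lay on the polysomal side of the library average, with Mvk among the exceptions, and the sensing genes Insig1, Insig2 and Scap lay on the sub-polysomal side. Taking the polysomal to sub-polysomal log2 ratio as the mean of the 4 conditions, 41 of the 60 members lay above the library average and 6 below it (edgeR, adjusted p under 0.05). Over all genes tested, 62.6% were called, 31.5% higher and 31.1% lower. The median log2 ratio was 0.71 over the members and -0.06 over all genes. Members are mostly well expressed. Among the 11046 genes never below 10 counts, 46.1% were called higher and 36.5% lower, and 54 members passed this filter, of which 40 (74.1%) were called higher and 6 (11.1%) lower. The members left out by it were Lpl, Gstm7, Gldc, Acat3, Cbs and Pparg, and only Pparg among them was called. Without ASP shSCR replicate 1 the counts were 41 higher and 7 lower. The ratio is relative to the average mRNA of the libraries, so a shift in the ribosome load of all mRNAs is not seen in it.

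**Figure D1:**
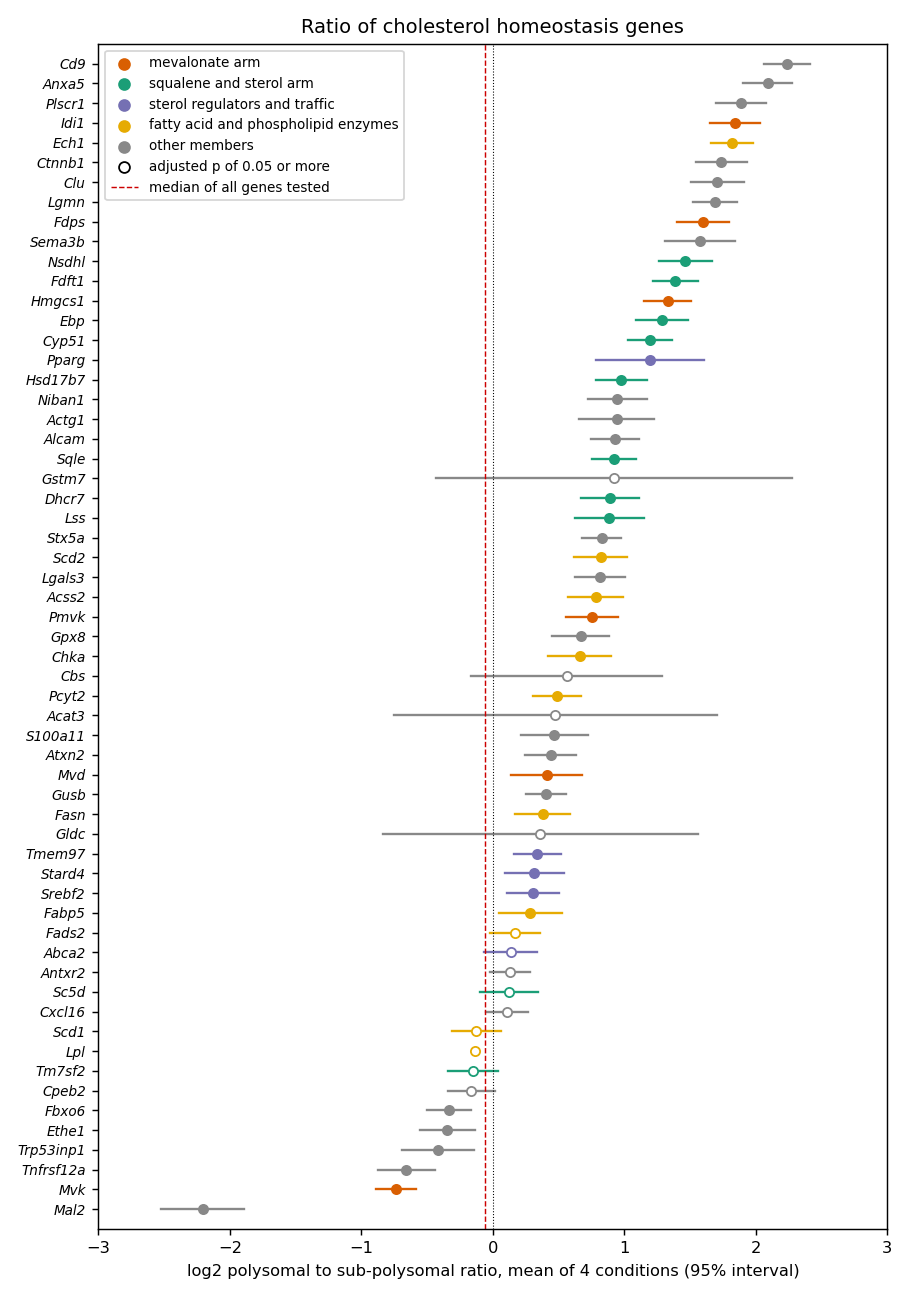
Log2 polysomal to sub-polysomal ratio (x axis) of the members shown (y axis), as the mean of 4 conditions with its 95% interval, coloured by role. Filled points passed the adjusted p threshold. The points run from -2.21 (Mal2) to 2.23 (Cd9), and most lie right of the dashed median of all genes at -0.06. Lpl, at very low counts, has no interval.

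The enzymes of the mevalonate arm described here differed from the library average, upward with 1 exception. Idi1, the isopentenyl diphosphate isomerase, had the highest log2 ratio of the arm at 1.84 ± 0.10 (SE, adjusted p = 8.3e-15), which is 3.58-fold. Its 16 pellets ranged from 0.84 to 2.50 with a median of 1.92. Fdps, which makes farnesyl pyrophosphate, stood at 1.60 ± 0.10 (adjusted p = 1.49e-13), with pellets from 0.81 to 2.28 and a median of 1.66. All pellets of both genes were above 0, in each of the 4 conditions. Hmgcs1, the HMG-CoA synthase, stood at 1.33 ± 0.09 (pellets 0.63 to 1.87, median 1.34). Pmvk, phosphomevalonate kinase, was at 0.75 ± 0.10 and Mvd, the decarboxylase, at 0.41 ± 0.14.

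Mvk, mevalonate kinase, was the exception in this arm. Its log2 ratio was -0.74 ± 0.08 (adjusted p = 3.48e-09), or 0.599-fold, and all 16 pellets were below 0 (-1.23 to -0.31, median -0.74). Mvk thus lay on the sub-polysomal side in every pellet while Hmgcs1, Idi1 and Fdps lay on the polysomal side in every pellet.

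In the squalene and sterol arm 8 of 10 enzymes were higher and none lower. Nsdhl, a sterol dehydrogenase, reached 1.47 ± 0.10, Fdft1 (squalene synthase) 1.39 ± 0.09, Ebp (sterol isomerase) 1.29 ± 0.10 and Cyp51 (lanosterol demethylase) 1.20 ± 0.09. Hsd17b7 (0.98 ± 0.10), Sqle, the squalene epoxidase (0.92 ± 0.09), Dhcr7, the last reductase of a route to cholesterol (0.89 ± 0.11), and Lss, lanosterol synthase (0.89 ± 0.13), followed. The reductase Tm7sf2 (-0.15 ± 0.10, adjusted p = 0.186) and the desaturase Sc5d (0.12 ± 0.11, adjusted p = 0.354) did not pass, although Tm7sf2 was called lower with DESeq2's size factors (-0.22, adjusted p = 0.0445) and without ASP shSCR replicate 2 (-0.23, adjusted p = 0.0439), and Sc5d higher with TMM within each fraction (0.27, adjusted p = 0.037). Tm7sf2 shares its reaction with Lbr, which is not in the set and stood at 0.95 ± 0.09 (adjusted p = 9.44e-10). Enzymes outside the set were high as well: Acat2, which condenses acetyl-CoA for the pathway, at 1.95 ± 0.08, and Msmo1, a sterol methyl oxidase, at 1.64 ± 0.08.

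The sterol regulators and carriers showed smaller ratios. Srebf2, which encodes SREBP2, stood at 0.30 ± 0.10 (adjusted p = 0.0102), and its pellets ran from -0.47 to 1.20 with 13 of 16 above 0. Stard4, a sterol carrier (0.32 ± 0.11), and Tmem97, a regulator of the NPC1 transporter (0.34 ± 0.09), were similar. With DESeq2's size factors Stard4 no longer passed (0.25, adjusted p = 0.0556), nor did it without replicate 2 of ASP shSCR, ASP shGRIN2D or ASP shDHPS (adjusted p up to 0.0843). Abca2 (0.13 ± 0.10, adjusted p = 0.262) did not pass, but was called higher with TMM within each fraction (0.28, adjusted p = 0.0162). Pparg, a lipid-sensing nuclear receptor, was called at 1.19 ± 0.21 from few reads.

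**Figure D2:**
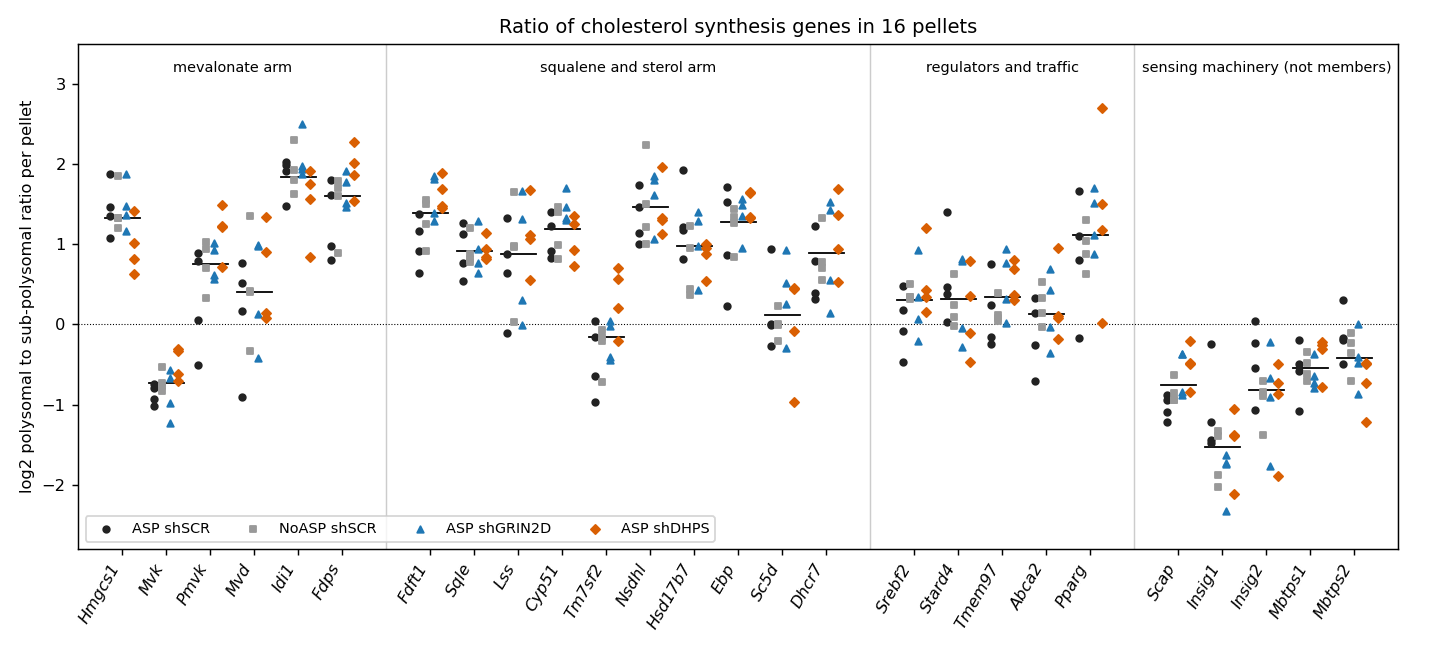
Log2 polysomal to sub-polysomal ratio (y axis) of enzymes in pathway order, the regulators and the sensing machinery (x axis). Each point is 1 pellet, coloured by condition, and the bar is the mean of 16 pellets. Idi1 (0.84 to 2.50) and Fdps (0.81 to 2.28) lie wholly above 0, and Mvk (-1.23 to -0.31), Scap (-1.22 to -0.21) and Insig1 (-2.33 to -0.24) wholly below it.

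The sensing machinery is not in the set, and it was taken from a list of context genes chosen by function. Insig1 had a log2 ratio of -1.53 ± 0.11 (adjusted p = 1.27e-12), 0.347-fold, and its 16 pellets ranged from -2.33 to -0.24 with a median of -1.46. The highest of these pellets was ASP shSCR replicate 1, and without it the ratio was -1.64. Scap stood at -0.75 ± 0.08 (adjusted p = 5.96e-09), with pellets from -1.22 to -0.21. Insig2 (-0.82 ± 0.12), Mbtps1, which encodes S1P (-0.54 ± 0.09), and Mbtps2, which encodes S2P (-0.42 ± 0.09), were also called lower. All 5 genes around SREBP2 processing therefore lay below the library average. Srebf1, which encodes the related SREBP1, was higher, at 0.96 ± 0.12. Of the 12 genes in this context list, 5 were called higher and 6 lower.

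Among 17 context genes of sterol uptake, efflux and storage, 9 were higher and 5 lower. The lysosomal genes Lipa, an acid lipase (1.24 ± 0.09), and Npc1, the cholesterol exporter of the lysosome (1.15 ± 0.10), were high, as were Osbp (1.01 ± 0.09), Nceh1, which hydrolyses cholesteryl esters (1.00 ± 0.08), and Soat1, which forms them (0.67 ± 0.08). The liver X receptors Nr1h3 (-0.89 ± 0.21) and Nr1h2 (-0.45 ± 0.09), the sterol transfer protein Gramd1a (-0.95 ± 0.12) and the HDL receptor Scarb1 (-0.60 ± 0.10) were low.

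The windows around the start codon of 8 genes with high or low ratios are shown because ribosomes choose the start codon from the bases beside it. Other genes with ratios higher or lower than some of these are not shown. They were read from GENCODE transcripts of the GRCm38 build, 12 bases before and 9 after the start codon, which is in capitals.
Cd9: ccagcttgtaccATGccggtcaaa
Idi1: ttggctggaggcATGtggcgcgga
Fdps: tcctctgtcagaATGaatgggaac
Hmgcs1: agctctttcaccATGcctgggtca
Mvk: gtctcagaagccATGttgtcagaa
Mal2: agcagcggcagcATGtcggccggc
Scap: acttagccgaggATGaccctgact
Insig1: gcctggacgccgATGcccaggctg
In GRCm38, Idi1 lies at chr13:8885501-8892451 on the + strand, Hmgcs1 at chr13:119690379-119708260 on the + strand, Mvk at chr5:114444269-114460591 on the + strand and Insig1 at chr5:28071363-28078662 on the + strand. Of these 8 windows, that of Insig1 has no purine 3 bases before the start codon. A purine stood there in 52 of the 56 members with a full window (92.9%) and in 85.7% of all genes of the table, and in 36 of 39 members with a higher and 5 of 5 with a lower ratio. A G followed the start codon in 51.8% of members and 52.4% of all genes.

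The median coding length of the members was 1216.5 bases against 1365 for all genes with a coding transcript, and the median 5′UTR was 174 against 165 bases. Over the 60 members, which share the same libraries, Spearman's rho between coding length and the log2 ratio was 0.095.

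Genes of the set with other functions reached both ends of the range. The tetraspanin Cd9 stood at 2.23 ± 0.09 (adjusted p = 6.05e-16), 4.71-fold, with 16 pellets from 1.69 to 2.49 and a median of 2.25. Anxa5, an annexin (2.09 ± 0.09), Plscr1, a phospholipid scramblase (1.88 ± 0.10), Ech1, an enzyme of fatty acid oxidation (1.82 ± 0.08), Ctnnb1, β-catenin (1.74 ± 0.10), Clu, the secreted chaperone clusterin (1.71 ± 0.10), and Lgmn, the lysosomal protease legumain (1.69 ± 0.09), followed. Mal2, a membrane traffic protein, was the lowest at -2.21 ± 0.16 (adjusted p = 3.35e-12). Its pellets ranged from -3.53 to 0.40, and the sole pellet above 0 was ASP shSCR replicate 1, without which the ratio was -2.40. The other members called lower were Tnfrsf12a, a TNF family receptor (-0.66 ± 0.11), Trp53inp1 (-0.42 ± 0.14), Ethe1 (-0.35 ± 0.11) and Fbxo6 (-0.34 ± 0.09). With TMM scaling within each fraction Trp53inp1, Ethe1 and Fbxo6 no longer passed. Of the 10 fatty acid and phospholipid enzymes, 7 were higher and none lower, among them Scd2 (0.82 ± 0.10), Acss2 (0.78 ± 0.11) and Chka, choline kinase (0.66 ± 0.12), while Scd1 stood at -0.13 ± 0.10 (adjusted p = 0.269). Fabp5, a fatty acid binding protein counted among the 7, no longer passed with DESeq2's size factors (adjusted p = 0.121) or its Wald test (adjusted p = 0.116), nor without any one of 9 of the 16 pellets (ASP shSCR 2 or 3, NoASP shSCR 1, 2 or 4, ASP shGRIN2D 2 or 3, ASP shDHPS 2 or 3, adjusted p up to 0.208).

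The members took a larger share of the reads in the polysomal fraction. They made up 1.02% to 1.88% of the counts of polysomal libraries and 0.639% to 0.847% of sub-polysomal libraries, so the ranges did not overlap. The lowest polysomal share was that of ASP shSCR replicate 1. Genes outside sterol synthesis carried most of this share: the 8 most abundant members (Actg1, S100a11, Anxa5, Ctnnb1, Clu, Cd9, Tnfrsf12a and Lgals3) made up 69.4% of the members' summed polysomal CPM. The 17 enzymes of both arms took 0.120% to 0.246% of the counts of polysomal and 0.0633% to 0.0970% of those of sub-polysomal libraries, again without overlap. Per kilobase of transcript, Fdps was the most abundant enzyme of the pathway in both fractions, at 231 ± 41 CPM per kb (SD, n = 16) in the polysomal and 69.3 ± 16 in the sub-polysomal libraries. Idi1 (98.3 ± 24) and Sqle (69.5 ± 9.2) followed in the polysomal fraction. Mvk (33.4 ± 7.3) and Sqle (33.1 ± 4.8) followed in the sub-polysomal fraction and lay within each other's spread. Hmgcs1 stood at 37.7 ± 13 CPM per kb in the polysomal and 13.1 ± 2.1 in the sub-polysomal fraction, and Lss was the lowest enzyme at 5.97 ± 2.2 and 2.77 ± 0.50.

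Each condition was also described alone, without a test. The mean pellet ratio was above 0 for 50 of 60 members in ASP shSCR, 49 in NoASP shSCR, 48 in ASP shGRIN2D and 48 in ASP shDHPS (83.3%, 81.7%, 80% and 80%), against 48.5%, 50.5%, 50.4% and 47.1% of all genes. Fewer members, 28, 39, 33 and 39, were above 0 in all 4 pellets of the condition (46.7%, 65%, 55% and 65%, against 22.7%, 31.5%, 26.8% and 26% of all genes), and 24 were above 0 in all 16 pellets. By pellet, the median over the members was 0.48, 0.78, 0.80 and 0.78 in ASP shSCR, 0.73, 0.52, 0.56 and 0.89 in NoASP shSCR, 0.91, 0.61, 0.61 and 0.93 in ASP shGRIN2D, and 0.97, 0.69, 0.68 and 0.83 in ASP shDHPS. The lowest pellet was ASP shSCR replicate 1, and the conditions overlapped. For Hmgcs1 the mean log2 ratio was 1.44 ± 0.33 (SD, n = 4), 1.43 ± 0.29, 1.47 ± 0.30 and 0.97 ± 0.34 in the same order.

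Whether aspartate, Grin2d or Dhps changed this ratio was tested as the difference between conditions, and no member passed in any of the 4 differences (edgeR). The background was low too, at 0% of all genes for ASP shSCR minus NoASP shSCR and minus ASP shGRIN2D, 0.208% for ASP shSCR minus ASP shDHPS and 0.00563% for ASP shGRIN2D minus ASP shDHPS. At an unadjusted p under 0.05 there were 2, 4, 14 and 2 members (3.33%, 6.67%, 23.3% and 3.33%), against 1.93%, 3.22%, 13.6% and 6.41% of all genes. The intervals were wide enough to hold modest changes. For Hmgcs1 the log2 difference was 0.47 (95% interval -0.02 to 0.97) for ASP shSCR minus ASP shDHPS. The 3 differences from ASP shSCR share its libraries.

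Against ASP shDHPS, the most negative ratio differences were those of Pmvk (-0.86 ± 0.28, adjusted p = 0.166) and Clu (-0.82 ± 0.28, adjusted p = 0.18), and the most positive were those of Mal2 (0.99 ± 0.45, adjusted p = 0.324) and Trp53inp1 (0.90 ± 0.40, adjusted p = 0.313). Without ASP shSCR replicate 1 the difference of Mal2 was 0.37, and those against NoASP shSCR and ASP shGRIN2D were 0.33 and 0.31. The highest Trp53inp1 log2 ratio of the 16 pellets was that of ASP shSCR replicate 2, at 1.19 against a mean of -0.03 in ASP shSCR. With DESeq2's Wald test 4 members passed, each with a lower ratio in ASP shSCR: Clu (-0.87, adjusted p = 0.0249), Lgals3, a galectin (-0.80, 0.0362), Pmvk (-0.90, 0.0382) and Ech1 (-0.54, 0.0399). None of the 4 passed with DESeq2 without ASP shSCR replicate 1, a fit added after the data were seen: the differences were then -0.73 for Clu, -0.77 for Lgals3, -0.66 for Pmvk and -0.43 for Ech1 (adjusted p of 0.0603 to 0.109). In edgeR without that pellet, they were -0.69 for Clu and -0.62 for Pmvk. Clu and Fdft1 were also the most negative against ASP shGRIN2D, at -0.77 ± 0.28 and -0.56 ± 0.25 (both adjusted p = 1). Against NoASP shSCR the extremes were S100a11 (-0.50 ± 0.37) and Atxn2 (-0.49 ± 0.28) on 1 side and Mal2 (0.94 ± 0.45) and Hsd17b7 (0.54 ± 0.28) on the other. Without ASP shSCR replicate 1 the difference of S100a11 was -0.16. Between the knockdowns they were S100a11 (-0.55 ± 0.36), Tm7sf2 (-0.54 ± 0.28), Alcam (0.71 ± 0.26) and Trp53inp1 (0.56 ± 0.39), the last of which also had the most positive difference among members for ASP shSCR minus ASP shGRIN2D after Mal2 (0.34 ± 0.39).

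Levels within the sub-polysomal fraction differed for a few members when Dhps was silenced. In ASP shSCR minus ASP shDHPS, 2 members were higher and 2 lower of the 60 (edgeR), and over all genes 1.41% were called (0.974% higher, 0.439% lower). In bulk RNA, fewer cells with a transcript and less of it per cell cannot be told apart. The summed epithelial markers, led by Krt8, moved as well: in the sub-polysomal libraries they were at 2811, 4375, 2401 and 2645 CPM in ASP shSCR and 2795, 3078, 2080 and 2456 CPM in NoASP shSCR. They were at 1634, 1662, 2067 and 1793 CPM in ASP shGRIN2D and 1627, 1697, 2051 and 1853 CPM in ASP shDHPS, so that every knockdown library lay below every shSCR library. In the polysomal libraries the summed epithelial markers of these conditions overlapped. They were at 6647, 3316, 4682 and 5382 CPM in ASP shSCR. They were at 4345, 2557, 3149 and 5347 CPM in ASP shGRIN2D and 5312, 2828, 4760 and 5050 CPM in ASP shDHPS. The part of these markers in the member differences was not tested.

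Clu was at 435, 424, 278 and 428 CPM in ASP shSCR and at 156, 156, 208 and 220 CPM in ASP shDHPS. The groups did not overlap, and the log2 difference was 1.08 ± 0.18 (adjusted p = 0.00148). Its values were 397, 344, 260 and 371 CPM in NoASP shSCR and 214, 197, 233 and 278 CPM in ASP shGRIN2D, where the difference from ASP shSCR was 0.76 ± 0.18 (adjusted p = 0.0556). That difference, of the same size, passed with genes under 10 counts left out (adjusted p = 0.0399), with the replicate number as a block (adjusted p = 0.00882), with DESeq2 (adjusted p = 0.00374), and without replicate 3 of ASP shSCR (0.89, adjusted p = 0.0191) or NoASP shSCR (adjusted p = 0.0379). Clu kept its call against ASP shDHPS in every other fit made. In the polysomal libraries the Clu difference against ASP shDHPS was 0.30 ± 0.23 (adjusted p = 0.543).

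Fdft1 was at 77.2, 82.8, 59.6 and 91.1 CPM in ASP shSCR and at 51.4, 49.5, 51.3 and 52.5 CPM in ASP shDHPS, again with no overlap. The difference was 0.60 ± 0.15 (adjusted p = 0.0323). ASP shGRIN2D had 53.6, 54.5, 58.7 and 55.8 CPM (0.48 ± 0.15, adjusted p = 0.189), so that all its libraries also lay below those of ASP shSCR, and DESeq2 called that difference (adjusted p = 0.0476). In the polysomal fraction the Fdft1 difference against ASP shDHPS was 0.04 ± 0.21 (adjusted p = 0.951). The Fdft1 call was lost when ASP shSCR replicate 1, 2 or 4 or any pellet of ASP shDHPS was left out (adjusted p up to 0.107).

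Chka, which makes phosphocholine for membrane lipids, moved the other way. It was at 22.7, 18.9, 24.4 and 18.5 CPM in ASP shSCR and at 31.9, 30.1, 55.1 and 40.1 CPM in ASP shDHPS, with no overlap and a difference of -0.90 ± 0.20 (adjusted p = 0.0179). NoASP shSCR, at 26.6, 17.6, 27.3 and 26.1 CPM, and ASP shGRIN2D, at 18.5, 27.4, 33.4 and 28.3 CPM, both overlapped ASP shSCR. Lgmn was at 12.6, 12, 12.6 and 13.3 CPM in ASP shSCR against 20.3, 18.5, 20.7 and 24.1 CPM in ASP shDHPS, a difference of -0.73 ± 0.19 (adjusted p = 0.0487). Chka was lost without ASP shSCR replicate 2 or 4 or ASP shDHPS replicate 3 or 4 (adjusted p up to 0.101). Lgmn was lost without any pellet of either condition, without NoASP shSCR replicate 2 or without ASP shGRIN2D replicate 4 (adjusted p up to 0.154), and with DESeq2's size factors (adjusted p = 0.0511).

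**Figure D3:**
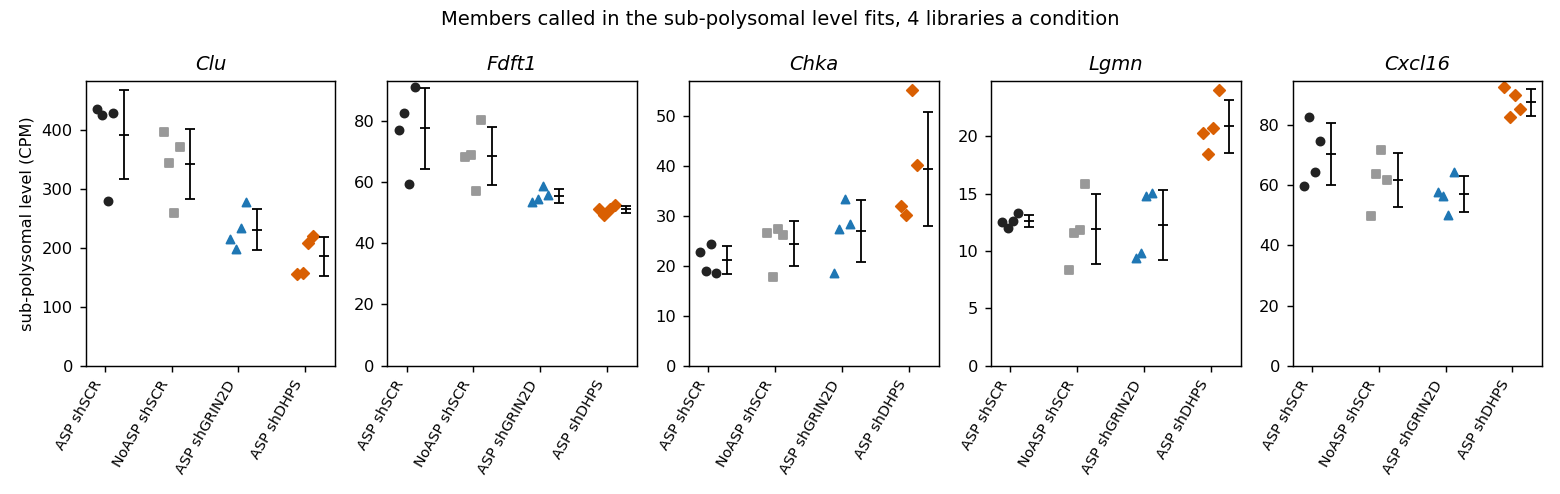
Sub-polysomal level in CPM (y axis, from 0) of the 5 members called in a level fit, by condition (x axis). Points are libraries, and bars give mean ± SD of 4. Clu and Fdft1 are lower in ASP shDHPS than in ASP shSCR, Chka and Lgmn are higher, and Cxcl16 is higher in ASP shDHPS than in ASP shGRIN2D, each without overlap.

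Fewer differences were called elsewhere in the sub-polysomal fraction. Between the knockdowns, ASP shGRIN2D minus ASP shDHPS gave 1 member, Cxcl16, a transmembrane chemokine (background 0.726%, with 0.422% higher and 0.304% lower). It was at 57.7, 56.4, 50 and 64.4 CPM against 92.6, 82.7, 90.1 and 85.4 CPM, a difference of -0.62 ± 0.15 (adjusted p = 0.0399). This call was lost when any pellet of the 2 conditions, or ASP shSCR replicate 3 or 4, was left out (adjusted p up to 0.15), or when only those 2 conditions were fitted (adjusted p = 0.0522). Lgmn (-0.77 ± 0.19, adjusted p = 0.0504) and the peroxidase Gpx8 (-0.75 ± 0.19, adjusted p = 0.0525) lay just outside the threshold. Both passed with genes under 10 counts left out, with the replicate block, with only those 2 conditions fitted and with DESeq2 (adjusted p of 0.00594 to 0.0409 for Lgmn and 0.0149 to 0.039 for Gpx8). With 1 pellet left out, Lgmn passed in 4 fits (without ASP shSCR 2, NoASP shSCR 1 or 4, or ASP shGRIN2D 4) and Gpx8 in 5 (without ASP shSCR 2 or 3, NoASP shSCR 3 or 4, or ASP shGRIN2D 2). The most positive were Sema3b (0.72 ± 0.30, adjusted p = 0.368) and Trp53inp1 (0.54 ± 0.21, adjusted p = 0.323).

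ASP shSCR minus ASP shGRIN2D gave 0 members (background 0.315%, with 14 members or 23.3% at an unadjusted p under 0.05, against 11% of all genes). After Clu, Fabp5 was the most positive (0.57 ± 0.20, adjusted p = 0.278), and Trp53inp1 (-0.73 ± 0.21, adjusted p = 0.156) and Hsd17b7 (-0.60 ± 0.23, adjusted p = 0.31) were the most negative. ASP shSCR minus NoASP shSCR gave 0 members as well (background 0%, with 5 members or 8.33% at an unadjusted p under 0.05, against 4.91% of all genes). Hsd17b7 (-0.49 ± 0.23) was the most negative there, and Mvk (0.37 ± 0.17) and Fbxo6 (0.29 ± 0.16) the most positive, each with an adjusted p of 0.848.

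Sub-polysomal differences of the enzymes of the pathway varied in size. Against ASP shDHPS, the sub-polysomal log2 difference was 0.53 ± 0.16 for Fdps (adjusted p = 0.0968) and 0.54 ± 0.17 for Mvk (adjusted p = 0.109), near that of Fdft1. Both passed with the replicate block (0.50, adjusted p = 0.0267, for Fdps and 0.56, adjusted p = 0.0147, for Mvk) and with DESeq2 (adjusted p = 0.033 and 0.0478). Fdps also passed without ASP shSCR replicate 3 (adjusted p = 0.0397) and Mvk without ASP shDHPS replicate 2 (adjusted p = 0.0486). For Hmgcs1 it was -0.07 ± 0.15 and for Cyp51 0.08 ± 0.14. The median over the 7 mevalonate enzymes was 0.27 and that over the 10 sterol enzymes 0.08, and that over all genes was -0.01. Cpeb2, a translation regulator, was at -0.85 ± 0.23 (adjusted p = 0.063), and passed with genes under 10 counts left out, only those 2 conditions fitted, the replicate block or DESeq2 (adjusted p of 0.0025 to 0.0472), or without ASP shSCR replicate 3 or NoASP shSCR replicate 4 (adjusted p = 0.0283 and 0.0362). Among the context genes, Nceh1 was called lower in ASP shSCR (-0.80 ± 0.15, adjusted p = 0.00481), as was Atf3, a stress factor taken out of the set (-1.21, adjusted p = 0.00773). The sensing genes did not pass, with Insig1 at 0.47 ± 0.17 (adjusted p = 0.189), Scap at 0.08 ± 0.14 and Srebf1 at 0.31 ± 0.17. With the replicate block Insig1 passed (0.48, adjusted p = 0.0394).

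**Figure D4:**
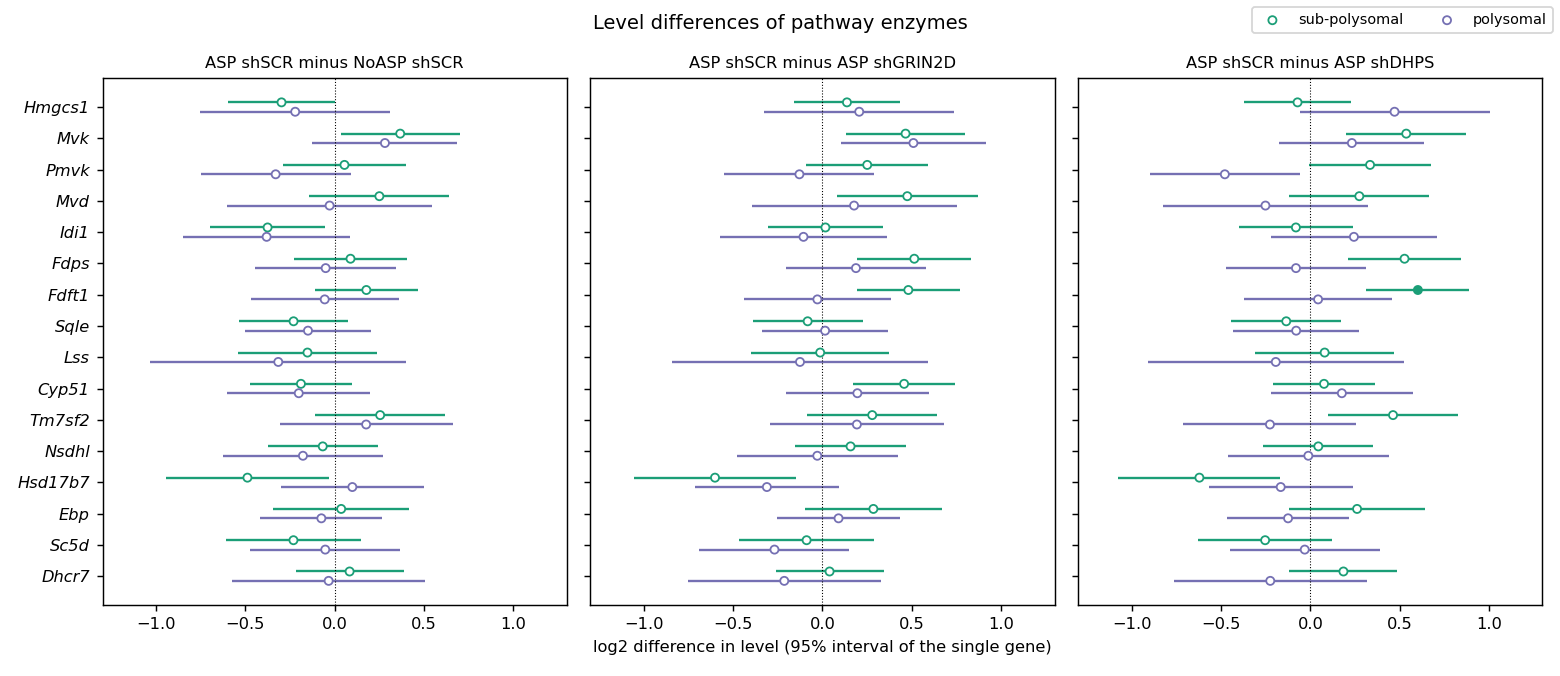
Log2 difference in level between ASP shSCR and each other condition (x axis, with the 95% interval of the single gene) for enzymes of the pathway (y axis), in the sub-polysomal and the polysomal fraction. Only the sub-polysomal difference of Fdft1 against ASP shDHPS, 0.60, is filled as passing the adjusted p threshold, and most intervals reach across 0.

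No member passed in the polysomal level in any of the 4 differences (edgeR). The background was 0% of all genes for ASP shSCR minus NoASP shSCR and 0.0169% minus ASP shGRIN2D. It was 0.169% minus ASP shDHPS (0.158% higher, 0.0113% lower) and 0.0845% for ASP shGRIN2D minus ASP shDHPS (0.0619% higher, 0.0225% lower). At an unadjusted p under 0.05 there were 3, 6, 11 and 9 members (5%, 10%, 18.3% and 15%), against 7.75%, 9.06%, 16.4% and 9.40% of all genes. Polysomal Hmgcs1 was at 109, 100.5, 129 and 219 CPM in ASP shSCR and at 96.1, 91.9, 76.1 and 138 CPM in ASP shDHPS, and these overlapped (0.47, 95% interval -0.06 to 1.00).

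The largest polysomal differences rested on ASP shSCR replicate 1. Mal2 was at 108, 14.3, 12.8 and 16.8 CPM in ASP shSCR, and its differences were 1.53 ± 0.53, 1.95 ± 0.54 and 1.74 ± 0.54 against NoASP shSCR, ASP shGRIN2D and ASP shDHPS. Without ASP shSCR replicate 1 they were 0.14, 0.58 and 0.36. Insig1 was at 228, 95, 59.1 and 75.4 CPM in ASP shSCR and at 41.1, 63.3, 52.0 and 54.0 CPM in ASP shDHPS, a difference of 1.12 ± 0.32 (adjusted p = 0.116) that became 0.53 without that library. DESeq2 called this Insig1 difference with that library (1.12, adjusted p = 0.0297) but not without it (0.54, adjusted p = 0.166), and edgeR called it without ASP shSCR replicate 3 (1.34, adjusted p = 0.0434). Without replicate 3, edgeR also called the Insig1 difference from ASP shGRIN2D (1.36, adjusted p = 0.0496). Mean polysomal Insig1 was 114 CPM in ASP shSCR with all its libraries, 65.5 CPM in NoASP shSCR and 51.8 CPM in ASP shGRIN2D. Both Mal2 and Insig1 have low polysomal to sub-polysomal ratios, and the polysomal library of ASP shSCR replicate 1 lies between the fractions. Whether that position produced its high values was not tested.

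Other members by size were Alcam, an adhesion molecule (0.81 ± 0.21, adjusted p = 0.099), Trp53inp1 (0.86 ± 0.39), Chka (-0.95 ± 0.37, adjusted p = 0.208) and Lgmn (-0.76 ± 0.20, adjusted p = 0.109) in ASP shSCR minus ASP shDHPS. In the polysomal as in the sub-polysomal fraction, Chka and Lgmn had negative differences, here without passing the test. With the replicate block both passed (-1.03, adjusted p = 0.0167, for Chka and -0.74, adjusted p = 0.0219, for Lgmn), as did Alcam (0.81, adjusted p = 0.0199), and DESeq2 called Lgmn (adjusted p = 0.013) and Alcam (adjusted p = 0.0109). Cxcl16 (-0.93 ± 0.21, adjusted p = 0.11), Fabp5 (-0.75 ± 0.23), Trp53inp1 (1.07 ± 0.39) and Sema3b (0.70 ± 0.31) were the extremes between the knockdowns. Of these, Cxcl16 passed with the replicate block (adjusted p = 0.0361) and DESeq2 (adjusted p = 0.00643), and Fabp5 with the block (-0.77, adjusted p = 0.0405). Against ASP shGRIN2D they were Sema3b (-0.64 ± 0.31), Ech1 (-0.40 ± 0.17) and, after Mal2, Cxcl16 (0.55 ± 0.20), and against NoASP shSCR Atxn2 (-0.40 ± 0.31), Idi1 (-0.38 ± 0.24) and, after Mal2, Fbxo6 (0.66 ± 0.23, and 0.34 without ASP shSCR replicate 1). The polysomal differences of Scap (-0.38 ± 0.19) and Srebf1 (-0.35 ± 0.29) against ASP shDHPS did not pass.

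Promoter letters were searched as well. RefSeq promoters of the GRCm38.p6 build, from 250 bases before to 50 after the start of transcription, were matched for 43 of the 60 members and searched on both strands. CCAAT occurred in 27 of 43 (62.8%), including 12 of 13 matched enzymes of the pathway, against 39.1% of 11444 promoters. GGGCGG, the GC box letters, occurred in 37 of 43 (86.0%) against 61.4%. The sterol response element letters TCACNCCAC occurred in 1 member promoter, that of Hmgcs1 (2.33% against 0.996%), 137 bases before the start. It is shown as the sole match, with those letters in capitals, and lies at chr13:119690101-119690400 on the + strand.
Hmgcs1: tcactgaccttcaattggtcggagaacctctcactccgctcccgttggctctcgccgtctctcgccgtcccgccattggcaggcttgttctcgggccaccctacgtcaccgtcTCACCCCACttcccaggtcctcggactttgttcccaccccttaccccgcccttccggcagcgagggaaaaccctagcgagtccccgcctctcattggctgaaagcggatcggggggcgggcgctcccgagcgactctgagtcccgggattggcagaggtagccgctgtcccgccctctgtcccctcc
A match is a run of letters, not a measured site, and no binding was measured here.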

How the data were processed

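The authors trimmed the reads with Trim Galore 0.6.6, checked them with FastQC 0.11.9, mapped them to GRCm39 with STAR 2.6.1, quantified them with Salmon 1.4.0, rounded the estimates and removed genes without counts in most replicates. The deposited values are therefore whole-number counts per gene, not normalized. The deposited comparisons of the authors (fold differences from DESeq2 1.34.0 and gene set scores) were not used. Members and lists were chosen with earlier results of these data known. By role, Scd2 was placed with the fatty acid enzymes and Acat2 with the context genes.

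In R 4.3.3, edgeR 4.0.16 (TMM, two-sided quasi-likelihood test) fitted the ratio over 32 libraries with a term for each of the 16 pellets, as in the study's model, and the levels over the 16 libraries of each fraction. Benjamini-Hochberg adjustment ran over 17757 genes with a threshold of 0.05. Pellet ratios used a prior count of 2, and CPM used TMM within each fraction. Intervals are 95% intervals of the single gene. Genes named were the enzymes and regulators, members past the threshold, and the 2 most positive and 2 most negative members of each difference with a mean of at least 50 counts. Gene models came from a GRCm38 annotation. The tests were checked on simulated data. Alternatives included DESeq2 1.42.0, other normalizations and filters, other blocks and each pellet left out. Some items are not reported here.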

Additional observations from a re-analysis of the deposited data

Results flagged for a closer look

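In 104 groups of 4 libraries or pellets whose values are given above, the highest or lowest value was compared with its nearest neighbour by Dixon's ratio, and 13 groups passed its 95% critical value, where chance flags about 1 in 20. Of these, 3 came from ASP shSCR replicate 1, whose polysomal library lay between the fractions: polysomal Mal2 at 108 CPM against 16.8 for the next library, the Mal2 log2 ratio at 0.40 against -1.78, and the median log2 ratio over the members at 0.48 against 0.78.

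The remaining 10 involve other libraries or pellets. Polysomal Mal2 had a high library in NoASP shSCR (21.5 CPM, next 11) and the Mal2 log2 ratio a low pellet in ASP shDHPS (-3.53, next -2.23). The log2 ratio of Idi1 had a high pellet in ASP shGRIN2D (2.50, next 1.98), that of Insig1 a low pellet in ASP shGRIN2D (-2.33, next -1.74) and that of Srebf2 a high pellet in NoASP shSCR (0.51, next 0.35). In the sub-polysomal libraries of ASP shSCR, Clu had a low library (278 CPM, next 424), as did Dhps (32.2 CPM, next 39.6) and the summed level of the members (7381 CPM, next 8293). Polysomal Hmgcs1 had a high library in NoASP shSCR (247 CPM, next 143). Sub-polysomal Chka had a low library in NoASP shSCR (17.6 CPM, next 26.1).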

How the results depend on the processing

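The number of members off the library average in the ratio (47) was 46 to 49 under the alternatives other than leaving out a pellet and 45 to 48 with a pellet left out. TMM within each fraction moved the median log2 ratio of all genes from -0.06 to 0.08 and DESeq2's size factors moved it to -0.13, and they gave 46 members higher and 3 lower, and 39 and 8. Scd1 (-0.13) turned to 0.0225 with TMM within each fraction.

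With DESeq2, the ratio difference ASP shSCR minus ASP shDHPS gave 4 members (0 in edgeR), and 626 genes of the table in place of 37. The sub-polysomal level gave 2 members for ASP shSCR minus ASP shGRIN2D (0 in edgeR), 7 minus ASP shDHPS (4) and 3 between the knockdowns (1), beside 224, 651 and 273 genes of the table (56, 251 and 129 in edgeR). The polysomal level gave 2 members for ASP shSCR minus ASP shDHPS and 1 between the knockdowns (0 in edgeR), beside 554 and 204 genes of the table (30 and 15 in edgeR). With genes under 10 counts left out, the sub-polysomal counts were 1 for ASP shSCR minus ASP shGRIN2D and 3 between the knockdowns, and with only the conditions compared the latter was 2. With a pellet left out they were 0 to 1 for ASP shSCR minus ASP shGRIN2D, 1 to 5 minus ASP shDHPS and 0 to 3 between the knockdowns. DESeq2 without ASP shSCR replicate 1, added after the data were seen, gave 0 members in the ratio difference ASP shSCR minus ASP shDHPS beside 564 genes of the table. It gave 1, 5 and 3 members in the sub-polysomal comparisons, 2 in the polysomal level for ASP shSCR minus ASP shDHPS and 4 between the knockdowns, and Mvd fell short in the mean ratio (0.33, adjusted p = 0.0522). For the level comparisons of this added fit, the number of all genes called is not given beside the members. The same holds for the fits with the count filter, with only the conditions compared and with a pellet left out. Those member counts are therefore not read as a result about the members. The cause of these shifts was not tested.

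A replicate block across conditions gave 1, 8 and 3 members in these sub-polysomal comparisons (195, 758 and 291 genes of the table), and 3 and 2 in the polysomal level for ASP shSCR minus ASP shDHPS and between the knockdowns (405 and 103 genes). The pellets were taken to share only a number, since not every pair of the same number correlated above 0.1: deviations of same-numbered pellets of different conditions correlated at a median of 0.166 over 24 pairs, with a lowest value of -0.27, and those of differently numbered pellets at a median of -0.05 over 72. The direction of 3 small differences turned with a pellet left out, with ranges of -0.208 to 0.0352 (Hmgcs1) in the sub-polysomal level against ASP shDHPS, -0.0674 to 0.225 (Fdps) in that level against NoASP shSCR and -0.0851 to 0.536 (Trp53inp1) in the ratio against ASP shGRIN2D. Of 154 results for named genes, comparisons with the other alternatives, the added fit left aside, kept direction and side of the threshold 830 times, passed it anew 43 times and fell short 9 times. Members with the fewest counts (Lpl, Gstm7, Gldc, Acat3 and Cbs) did not pass in the mean ratio. This does not show that they lay at the library average.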
